A study of Mus musculus with 8 samples.

Results

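The collagen chains of the mouse were described in bone-derived mesenchymal stem cells (MSCs) that had been cultured at low or at high oxygen. The members are all genes of the count table whose symbol consists of Col, a type number, the letter a and a chain number, which gave 44 genes of 53465 gene identifiers. Of these, 32 had enough counts to be tested and 12 did not. RNA-seq was performed on 4 hypoxia-cultured and 4 normoxia-cultured samples, numbered from 1 to 4 in each group. Cells of both groups came from the bones of wild-type male C57BL6/N mice aged 3 to 5 months, were selected by flow cytometry as CD45- and Ter-119-negative, Sca-1- and CD140a-positive, and grew in the same α-MEM medium at the same temperature and carbon dioxide level. Hypoxia was 2% oxygen and normoxia was 21% oxygen. The study divided a single sorted population between the oxygen levels and kept the cells there for a week, while the labels place the sort on day 12. All samples are cultured cells without a transgene or a knockout, and the cells had lost the surroundings of the bone. In such bulk samples, fewer cells of a type and less RNA per cell cannot be told apart.

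Collagens are the main structural proteins of connective tissue and of the organic part of bone. Each collagen molecule is an interwound helix of chains, and each chain carries long stretches of the Gly-X-Y repeat, in which glycine is the only residue small enough to sit inside the helix. Fibrillar collagens (types I, II, III, V, XI, XXIV and XXVII) form the ropes of tendon, bone and cartilage, while other classes form sheets, filaments or bridges between them. Osteoblasts, the bone-forming descendants of MSCs, deposit mostly type I collagen, built from the chains Col1a1 and Col1a2.

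The repeat is visible in the coding sequences of the GENCODE M21 annotation. The following 30 codons are shown because these chains of the fibrillar class moved in opposite directions. Capitals mark the glycine codon that opens each repeat. Col5a2 also holds a glycine codon (ggt) inside a repeat, which is in lower case. They start at codon 168 of Col1a1 and at codon 211 of Col5a2, where the longest unbroken run of the repeat begins, with 338 and 339 repeats respectively.
Col1a1: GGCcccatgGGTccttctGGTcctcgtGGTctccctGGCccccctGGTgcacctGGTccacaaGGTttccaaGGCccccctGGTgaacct
Col5a2: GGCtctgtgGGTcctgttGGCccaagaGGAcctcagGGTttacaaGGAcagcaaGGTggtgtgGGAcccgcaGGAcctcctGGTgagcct
Runs of this length were shared by Col1a2 (339), Col2a1 (339), Col3a1 (344), Col5a1 (338), Col5a3 (337), Col11a1 (338) and Col11a2 (338). They were shorter in Col24a1 (216) and Col27a1 (217), and reached only 61 repeats in Col8a1, 60 in Col8a2 and 61 in Col10a1. The chains also differed in base composition, as the coding sequence of Col1a1 held 63.0% G and C and that of Col5a2 held 55.8%.

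The samples held between 12898291 and 25132141 counts, and hypoxia sample 1 was the most deeply sequenced. No pair of samples of a group agreed within sampling noise, with a chi-square of at least 3.66 per degree of freedom in every pair. The surface markers used in the sort were present, with Ly6a (Sca-1) at 359 to 477 CPM (counts scaled to a common library total) and Pdgfra (CD140a) at 146 to 234 CPM over all samples. The haemoglobin genes Hba-a1 and Hbb-bs were at 0 in all samples, and Alas2, which acts in haem synthesis of red blood cells, had at most 1 count. The 6 endothelial markers together reached 1.98 to 3.33 CPM, with Emcn at 0. The 8 blood cell markers summed to 445 to 893 CPM in hypoxia and 594 to 1120 CPM in normoxia, although the sort selected against CD45. Lyz2, the most counted of them, was called higher in normoxia (log2 change 0.56, limma-trend adjusted p = 0.022), and the other blood markers were not called. Of those tested, Csf1r (-0.59), Itgam (-0.46), Cd68 (-0.28) and Adgre1 (-0.11) had changes below 0, and Ptprc had 0.081. Of the 6 markers of pericytes and smooth muscle, Acta2, Myh11 and Des were called lower in normoxia by the test described below. Rgs5 (log2 change 0.71, limma-trend adjusted p = 0.056), Cspg4 (-0.24) and Mcam (-0.25) were not called. Of the 3 tenocyte markers, Mkx was called higher and Tnmd lower, of 8 MSC markers Cd44 higher and Eng lower, and of 4 adipocyte markers none. The part of such cells in the values below was not tested.

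Collagen RNA took up a large share of the transcriptome at both oxygen levels, and a larger one in hypoxia. All 44 chains together made up 11.64%, 11.66%, 12.18% and 11.35% of the counts in hypoxia samples 1 to 4, and 9.208%, 9.462%, 9.945% and 10.02% in normoxia samples 1 to 4. The group values were 11.7% ± 0.346 and 9.66% ± 0.39 (SD, n = 4 each), and they did not overlap. The lower total came from type I collagen. Its chains held 8.16%, 8.11%, 8.92% and 8.23% of the counts in hypoxia and 5.74%, 5.78%, 6.13% and 6.26% in normoxia. The collagen chains outside type I together held 3.35% ± 0.194 in hypoxia and 3.68% ± 0.154 in normoxia, with overlapping values. Within the collagen counts, type I held 71.4% ± 1.76 in hypoxia and 61.9% ± 0.638 in normoxia, while type III held 6.45% ± 0.372 and 9.67% ± 0.731 and type V held 9.95% ± 0.66 and 13.9% ± 0.41. These shares are a description without a test, and those within collagen counts are tied to each other, because a smaller share of type I leaves a larger one to the rest.

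**Figure D1:**
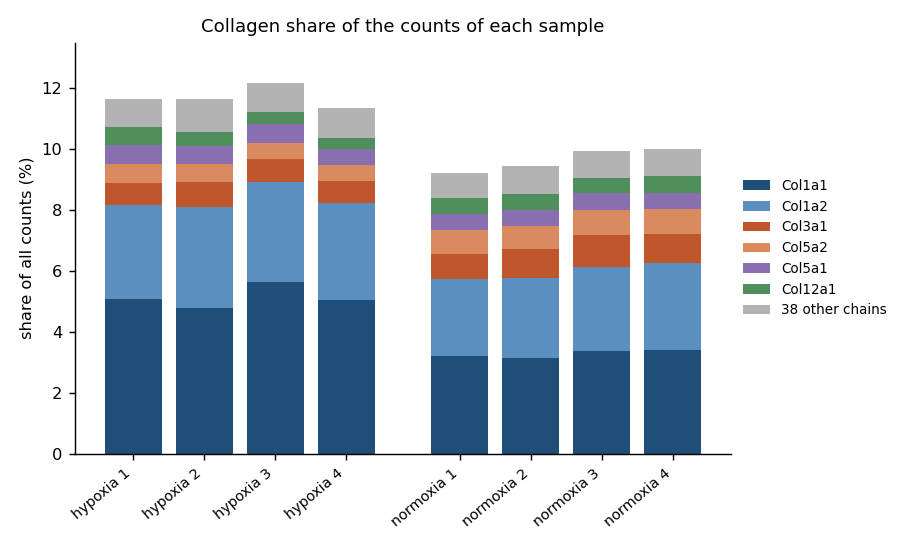
Share of all counts (%, y axis) that came from collagen chains in each of the 8 samples (x axis). Stacked bars show the 6 most counted chains and the other 38 chains together; the hypoxia bars reach 11.35% to 12.18% and the normoxia bars 9.208% to 10.02%, and the Col1a1 segment shrinks most.

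Col1a1 was the most counted gene of all genes in every sample, and Col1a2 ranked between 2 and 3. Per kilobase of transcript, which allows levels of different genes to be compared, Col1a1 stood at 8670 ± 614 CPM per kb in hypoxia, followed by Col1a2 (6020 ± 187), Col3a1 (1360 ± 75.1), Col5a2 (851 ± 71.0), Col5a1 (707 ± 44.7), Col6a1 (639 ± 56.2), Col6a2 (442 ± 33.6) and Col12a1 (398 ± 81.0; SD, n = 4 for all). Each of the first 4 steps in this order separated the sample ranges, whereas Col5a1 and Col6a1 overlapped, as did Col6a2 and Col12a1. In normoxia the order of these 8 was the same except that Col12a1 (452 ± 28.0) stood above Col6a2 (427 ± 26.9), and the ranges of Col1a1 (5290 to 5720) and Col1a2 (4750 to 5370) overlapped. Within each normoxia sample, Col1a1 still stood above Col1a2 per kb. At the other end of the 32 tested chains, Col4a6 stood at 0.0754 ± 0.0142 CPM per kb in hypoxia and 0.0314 ± 0.0195 in normoxia.

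It was next asked which chains differed between the oxygen levels. Changes are given as log2 CPM (CPM after TMM scaling of the library sizes) in normoxia minus hypoxia, and a chain was called when its limma-trend p-value, adjusted over all tested genes, was under 0.05. Of the 32 tested chains, 12 were called, 3 higher and 9 lower in normoxia. The 9 include Col4a6, which passed the filter only through its hypoxia counts, as given below. Over all 14369 tested genes, 34.6% were called, 18.0% higher and 16.5% lower, so the called share of the collagens was close to the background. The median log2 change was -0.26 over the collagen chains and 0.0049 over all genes. Without TMM scaling, the collagen calls split into 5 higher and 7 lower, and those of all genes into 3609 higher and 1575 lower instead of 2592 and 2378, with a median change of all genes of 0.089. Hypoxia and normoxia samples were fully separated for 13 of the 32 chains, 3 higher and 10 lower in normoxia, and for 32.6% of all genes. These 10 also include Col4a6, so the same limit holds for that count.

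Samples that share a number also deviated together, and when that number entered the fit as a term (the replicate block), limma-trend called 23 of the 32 chains, 5 higher and 18 lower. In that fit 46.0% of all genes were called, 23.3% higher and 22.7% lower. All 12 chains of the fit without the block were among the 23, in the same direction. Each chain that was called only with the block is named as such below, with its adjusted p in both fits.

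**Figure D2:**
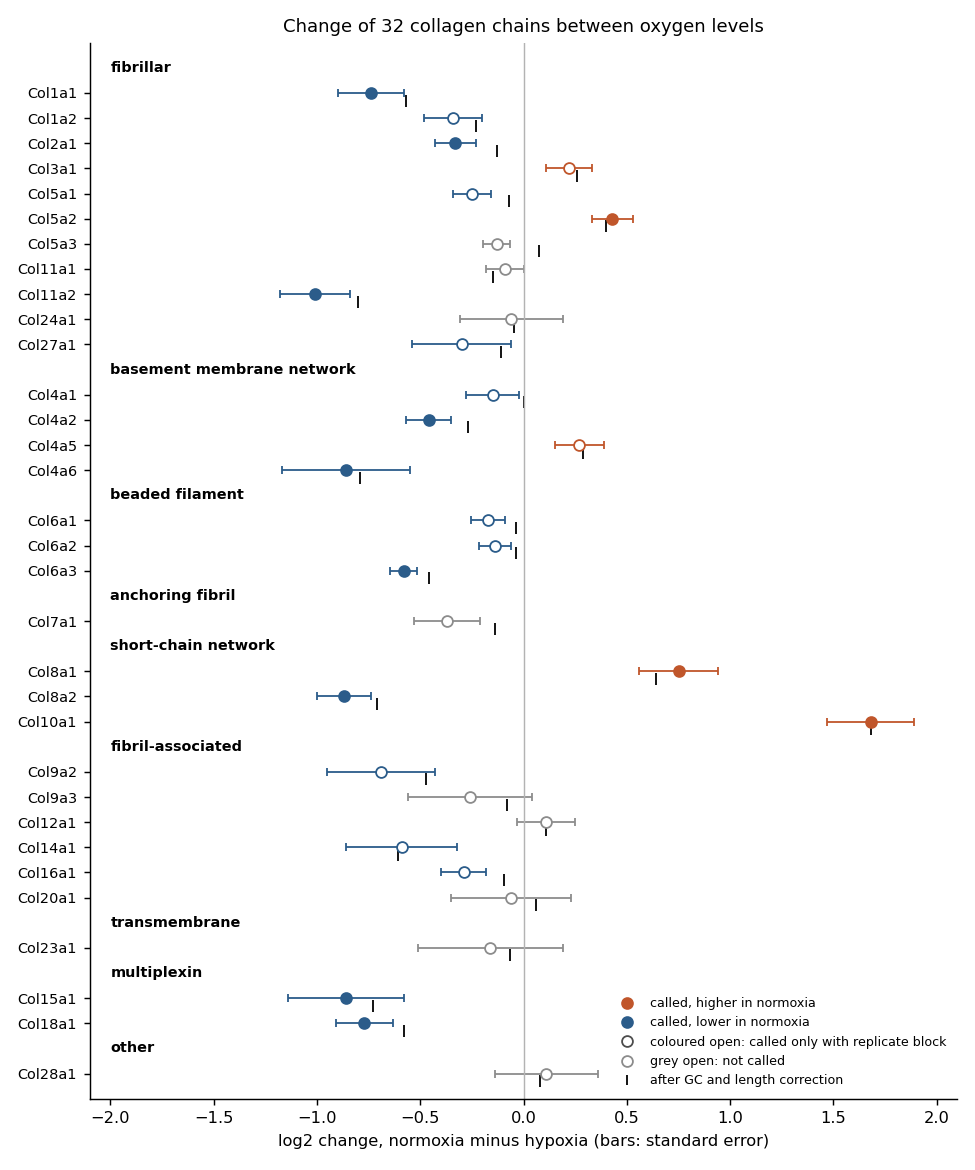
Log2 change of CPM, normoxia minus hypoxia (x axis), for the 32 tested collagen chains grouped by class (y axis), with bars of 1 standard error. Filled points were called without the replicate block (3 higher, 9 lower), coloured open points only with it, grey points in neither fit, and black ticks give the change after a correction for GC content and length; most points lie left of 0, while Col10a1, Col8a1 and Col5a2 lie to the right.

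Among the fibrillar collagens, Col1a1 fell and Col5a2 rose in normoxia. Of the 11 fibrillar chains, all tested, 1 was called higher and 3 were called lower, or 2 higher and 6 lower with the block. Col1a1 (ENSMUSG00000001506, chromosome 11, 94936224 to 94953042, GRCm38) encodes the chain that occurs in more copies in the type I molecule. Its log2 CPM was 15.70, 15.60, 15.83 and 15.63 in hypoxia samples 1 to 4 and 14.93, 14.89, 14.99 and 15.01 in normoxia samples 1 to 4. All hypoxia samples thus lay above all normoxia samples, and the log2 change was -0.74 (SE 0.16, limma-trend adjusted p = 0.0038), a level 1.67-fold higher in hypoxia. When no gene was filtered out for low counts, the same difference was not called (adjusted p = 0.1).

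The partner chain Col1a2 (ENSMUSG00000029661, chromosome 6, 4504814 to 4541544) moved less. It had a log2 CPM of 14.98, 15.07, 15.04 and 14.98 in hypoxia and 14.60, 14.64, 14.70 and 14.77 in normoxia. The groups did not overlap either, and the log2 change was -0.34 (SE 0.14), with a limma-trend adjusted p of 0.079 without the block and 0.0015 with it. Without the block, Col1a2 was called by edgeR (adjusted p = 0.0032), DESeq2 (4.1e-08) and limma-voom (0.0014). After the correction for GC content and length the log2 change was -0.23 (limma-trend adjusted p = 0.2, or 0.0054 with the block as well).

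Type I collagen is also the main product of osteoblasts, and markers of that cell type moved in the same samples. Of the 7 osteoblast markers on the list, 6 were tested. Sp7 (log2 change -0.80), Alpl (-0.48) and Runx2 (-0.35) were called lower, and Spp1 (0.54) was called higher. Ibsp (-0.61) and Dmp1 (-0.44, with 0 to 8 counts) were not called. The summed level of the list was 560 to 732 CPM in hypoxia and 676 to 883 CPM in normoxia. Most of this sum came from Spp1, at 331 to 448 CPM in hypoxia and 517 to 672 CPM in normoxia. None of the members of the list was at 0 in all samples. Their part in the collagen values was not tested.

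Type III and type V collagens co-assemble with type I in thin fibrils and limit fibril width. Col3a1 (ENSMUSG00000026043, chromosome 1, 45311538 to 45349706), the only chain of type III, had a log2 CPM of 12.89, 13.04, 12.92 and 12.84 in hypoxia and 12.93, 13.15, 13.29 and 13.19 in normoxia. The groups overlapped, although normoxia was higher within all 4 numbered pairs. Its log2 change was 0.22 (SE 0.11), with a limma-trend adjusted p of 0.14 without the block and 0.013 with it.

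Col5a2 (ENSMUSG00000026042, chromosome 1, 45374321 to 45503282) lies next to Col3a1, with the 3′ ends facing each other and 24614 bases between the genes. Its log2 CPM was 12.68, 12.53, 12.44 and 12.36 in hypoxia and 12.93, 12.84, 12.97 and 12.96 in normoxia. The groups did not overlap, and the log2 change was 0.43 (SE 0.10, limma-trend adjusted p = 0.0063). Its partner Col5a1, which pairs with Col5a2 in the common form of type V, went the other way. Col5a1 had a log2 CPM of 12.67, 12.63, 12.61 and 12.41 in hypoxia and 12.31, 12.32, 12.38 and 12.31 in normoxia, without overlap. The log2 change of Col5a1 was -0.25 (SE 0.091), with a limma-trend adjusted p of 0.052 without the block, 0.0021 with it, and 0.020 without hypoxia sample 4. Without the block, Col5a1 was called by edgeR (adjusted p = 0.017), DESeq2 (0.00099) and limma-voom (0.014). After the correction for GC content and length the log2 change was -0.07 (limma-trend adjusted p = 0.56, or 0.26 with the block as well), and the call was lost. The minor chain Col5a3 was at 5.99 to 6.16 log2 CPM in hypoxia and 5.87 to 6.08 in normoxia and was called in neither fit.

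**Figure D3:**
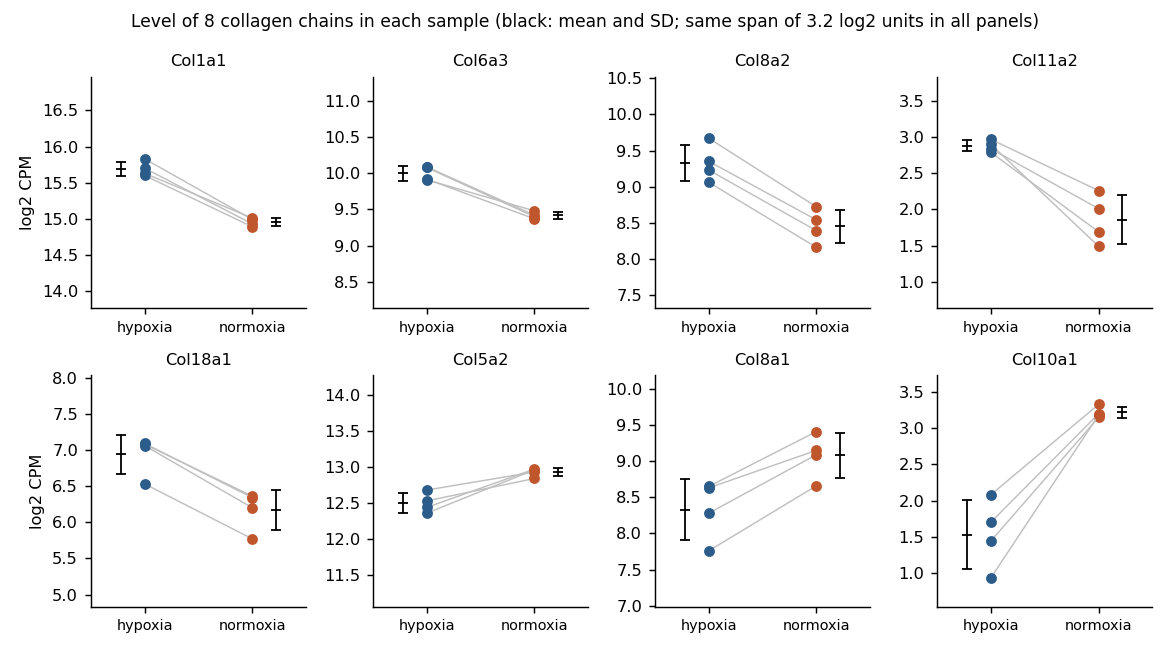
Log2 CPM (y axis, the same span of 3.2 in all panels) of 8 called collagen chains in the hypoxia and normoxia samples (x axis). Each point is a sample, grey lines join samples with the same number, and black marks give the mean and SD of 4 samples; the groups do not overlap in any panel, and the lines fall for 5 chains and rise for Col5a2, Col8a1 and Col10a1.

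Types II and XI are the fibrillar collagens of cartilage. Col2a1 (ENSMUSG00000022483, chromosome 15, 97975602 to 98004695) had a log2 CPM of 9.95, 9.59, 9.92 and 9.88 in hypoxia and 9.51, 9.27, 9.69 and 9.57 in normoxia. Hypoxia sample 2 lay within the normoxia range, and normoxia was lower in each numbered pair. The log2 change was -0.33 (SE 0.10, limma-trend adjusted p = 0.023). The call was lost without hypoxia sample 3 (adjusted p = 0.069), hypoxia sample 4 (0.057) or normoxia sample 2 (0.061), and without TMM scaling (0.078).

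Col11a2 (ENSMUSG00000024330, chromosome 17, 34039437 to 34066685) had the largest decrease among the 9 chains called lower in the limma-trend fit of the 32 filtered chains. It was a low-level chain with a log2 CPM of 2.90, 2.79, 2.84 and 2.97 in hypoxia and 1.49, 1.69, 2.01 and 2.26 in normoxia, and the groups were clearly apart. Its log2 change was -1.01 (SE 0.17, limma-trend adjusted p = 0.00092), a level 2.02-fold higher in hypoxia. Col11a1, with which it shares the type XI molecule, was at 9.56 to 9.92 in hypoxia and 9.45 to 9.73 in normoxia and was called in neither fit (log2 change -0.09, SE 0.090), but was called lower with GC correction and block together (-0.15, adjusted p = 0.013).

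Most of the type XI counts came from Col11a1, at 107 ± 11.6 CPM per kb against 1.15 ± 0.0759 for Col11a2 in hypoxia (SD, n = 4). Chondrocyte markers were mixed. On a list of 10 that includes 5 collagen chains, 7 were tested. The chains Col2a1 and Col11a2 themselves and Sox9 (log2 change -0.58) were called lower and none higher. Outside the collagens, Comp (-0.35, limma-trend adjusted p = 0.06) and Acan (0.29, adjusted p = 0.52) were not called. Matn3, with 1 to 8 counts, was not tested, at 0.0756 to 0.229 CPM in hypoxia and 0.224 to 0.596 in normoxia. The summed level of the list was 4680 to 6420 CPM in hypoxia and 4090 to 4940 CPM in normoxia, most of it from Comp. The cartilage genes Matn1 (0 to 3 counts) and Col9a1 (1 to 11 counts) were near 0 in all samples, and the part of such cells in the values was not tested.

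The remaining fibrillar chains, Col24a1 and Col27a1, were minor. Col27a1 was at 3.89 to 4.85 log2 CPM in hypoxia and 3.45 to 4.63 in normoxia, with a log2 change of -0.30 (SE 0.24) that was called only with the block (adjusted p = 0.011, against 0.37 without it), and not with GC correction and block together (-0.11, adjusted p = 0.31). Col24a1 was at 0.94 to 1.53 and 0.62 to 1.59 log2 CPM and was called in neither fit.

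To compare chains that assemble together, their counts were divided within each sample. This removes the scaling of the libraries, but not the relation to GC content described below. Of 8 ratios, 7 differed between the groups without overlap, each with p = 0.0286 in a two-sided exact permutation test. This is the smallest value that the 70 assignments of the samples allow, and it was 0.0327 after Benjamini-Hochberg adjustment over the 8. An exact permutation test on sign changes within the 4 numbered pairs gave p = 0.125 for each of the 7, also its smallest value. The 8 ratios were chosen with earlier results of these data known, so their p-values are not independent support. The ratio of Col1a1 to Col1a2 was 1.65, 1.45, 1.73 and 1.57 in hypoxia and 1.26, 1.19, 1.22 and 1.18 in normoxia. The difference was -0.40 on the log2 scale (SE 0.060, n = 4 each). Type I collagen is usually built from more Col1a1 than Col1a2 chains, and the count ratio, which is not scaled for length, was nearer to 1 in normoxia.

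The ratio within type V also dropped in normoxia. Col5a1 to Col5a2 was 0.988, 1.07, 1.13 and 1.03 in hypoxia and 0.648, 0.695, 0.665 and 0.636 in normoxia, a difference of -0.67 on the log2 scale (SE 0.049). Relative to Col1a1, both the type III and the type XII chain gained. Col3a1 to Col1a1 was 0.133 to 0.170 in hypoxia and 0.250 to 0.307 in normoxia, a log2 difference of 0.95 (SE 0.10). Col12a1 to Col1a1 was 0.0724 to 0.115 and 0.144 to 0.166, with a log2 difference of 0.85 (SE 0.17). These 2 ratios share Col1a1 as denominator, so they are not separate evidence of its decrease. After the correction for GC content and length the log2 difference was -0.34 for Col1a1 to Col1a2 and -0.47 for Col5a1 to Col5a2. It was 0.82 for Col3a1 to Col1a1 and 0.67 for Col12a1 to Col1a1. The ratio of Col6a1 to Col6a2 was an exception, with 1.19, 1.21, 1.18 and 1.24 in hypoxia and 1.19, 1.18, 1.15 and 1.21 in normoxia. Its log2 difference of -0.029 (SE 0.022) did not pass the test (exact permutation p = 0.229).

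**Figure D4:**
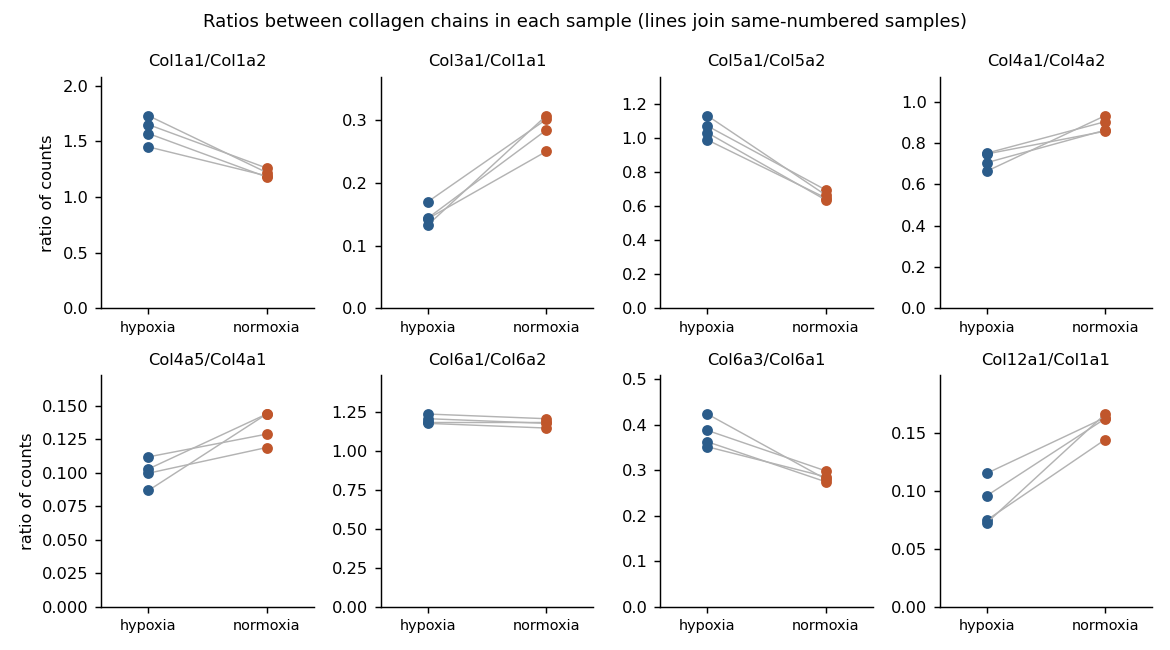
Ratio of the counts of a pair of collagen chains (y axis, from 0) in the hypoxia and normoxia samples (x axis), with lines joining samples of the same number. In 7 of the 8 panels the groups do not overlap; in the Col6a1 to Col6a2 panel both groups lie between 1.15 and 1.24.

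Type IV collagen forms the sheet-like network of basement membranes. Of its 6 chains 4 were tested, and 2 were called lower (1 higher and 3 lower with the block). Col4a2 (ENSMUSG00000031503, chromosome 8, 11312805 to 11449287) had a log2 CPM of 8.58, 8.95, 8.50 and 8.49 in hypoxia and 8.21, 8.42, 8.08 and 7.96 in normoxia. The groups did not overlap, though only by a narrow margin, and the log2 change was -0.46 (SE 0.11, limma-trend adjusted p = 0.0078). The call was lost after the correction for GC content and length (log2 change -0.27, adjusted p = 0.086), and kept with that correction and the block together (1.8e-05).

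Col4a1, the usual partner of Col4a2, moved less, at 7.90 to 8.54 log2 CPM in hypoxia and 7.86 to 8.27 in normoxia. Its log2 change of -0.15 (SE 0.13) was called only with the block (adjusted p = 0.015, against 0.39 without it), and not with GC correction and block together (0.94). The count ratio of Col4a1 to Col4a2 was 0.664 to 0.751 in hypoxia and 0.857 to 0.932 in normoxia, a log2 difference of 0.31 (SE 0.051), among the 7 that passed the test above.

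The genes Col4a1 and Col4a2 lie head to head and overlap by 22 bases, so that their start sites share a promoter region. Their promoter windows are shown because a pair with a common start region differed in change. The RefSeq windows of 300 bases around the start (GRCm38.p6) are chr8:11312777-11313076 on the minus strand for Col4a1 and chr8:11312555-11312854 on the plus strand for Col4a2, and they share 78 bases. Capitals mark GCGTG, a core of the sequence bound by hypoxia-inducible factors, and CCAAT, a common promoter element, on either strand.
Col4a1: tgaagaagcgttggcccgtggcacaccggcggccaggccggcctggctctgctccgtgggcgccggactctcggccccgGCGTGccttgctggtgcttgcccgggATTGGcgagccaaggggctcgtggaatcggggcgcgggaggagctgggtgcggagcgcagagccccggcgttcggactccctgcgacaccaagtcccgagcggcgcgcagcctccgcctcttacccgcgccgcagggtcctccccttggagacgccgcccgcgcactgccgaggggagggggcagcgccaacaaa
Col4a2: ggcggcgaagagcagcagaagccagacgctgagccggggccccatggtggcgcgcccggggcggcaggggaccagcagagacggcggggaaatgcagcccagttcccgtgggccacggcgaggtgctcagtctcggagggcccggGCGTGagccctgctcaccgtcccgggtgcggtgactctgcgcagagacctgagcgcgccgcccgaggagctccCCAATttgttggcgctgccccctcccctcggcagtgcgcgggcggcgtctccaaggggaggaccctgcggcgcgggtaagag
Each window held 1 GCGTG and 1 CCAAT. The windows hold 74.0% and 73.7% G and C.

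The X-linked chains of type IV, Col4a5 and Col4a6, also lie head to head, 1308 bases apart on the X chromosome. Col4a5 was at 4.65, 5.22, 4.73 and 4.75 log2 CPM in hypoxia and 5.20, 5.21, 5.08 and 4.92 in normoxia. Hypoxia sample 2 was the highest value of either group. The log2 change of 0.27 (SE 0.12) was called with the block (adjusted p = 0.0099, against 0.11 without it) and also without hypoxia sample 2 (log2 change 0.39, adjusted p = 0.0057).

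Col4a6 was nearly silent, with 1 to 12 counts per sample, and no reading of its level is firm at this depth. It passed the filter through the hypoxia samples, with 12, 5, 7 and 8 counts against 5, 1, 3 and 2 in normoxia. That it was tested thus depended on the group where it was higher, and its call is no support for a decrease. Its log2 CPM was -0.50, -0.72, -0.41 and -0.28 in hypoxia and -0.79, -1.85, -1.24 and -1.49 in normoxia, and the log2 change was -0.86 (SE 0.31, limma-trend adjusted p = 0.046). The call was lost when any of hypoxia samples 1 (adjusted p = 0.076), 2 (0.053), 3 (0.097) or 4 (0.11), or of normoxia samples 2 (0.12), 3 (0.073) or 4 (0.091), was left out. With Col4a5 set against Col4a1, the count ratio was 0.0869 to 0.112 in hypoxia and 0.119 to 0.144 in normoxia (log2 difference 0.42, SE 0.10). Of the 7 ratios, this was the only one that no longer passed the test after the correction for GC content and length (0.28, exact permutation p = 0.0571).

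Type VI collagen forms beaded filaments around cells, from an α1, an α2 and an α3-like chain. Of its 6 chains 3 were tested, and Col6a3 was called lower. Col6a3 (ENSMUSG00000048126, chromosome 1, 90765923 to 90843971) had a log2 CPM of 9.92, 10.09, 10.08 and 9.91 in hypoxia and 9.37, 9.42, 9.40 and 9.48 in normoxia. The gap between the groups was wider than the range of either, and the log2 change was -0.58 (SE 0.064, limma-trend adjusted p = 0.0001). Col6a1 and Col6a2 had smaller log2 changes of -0.17 (SE 0.082) and -0.14 (SE 0.078), which were called only with the block (adjusted p = 0.014 and 0.037, against 0.13 and 0.20 without it). With GC correction and block together neither was called (0.54 and 0.51).

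The α3 chain thus fell relative to Col6a1. The count ratio of Col6a3 to Col6a1 was 0.388, 0.363, 0.424 and 0.352 in hypoxia and 0.299, 0.275, 0.281 and 0.286 in normoxia, a log2 difference of -0.42 (SE 0.065). The α3-like chains Col6a4, Col6a5 and Col6a6 were below the filter. Col6a6 had 8, 27, 10 and 6 counts in hypoxia and 0, 0, 2 and 1 in normoxia. In a fit without a filter on low counts its log2 change was -1.92 (SE 0.40, limma-trend adjusted p = 0.0046). The anchoring fibril chain Col7a1, which ties basement membranes to the tissue below, was at 2.01 to 2.60 log2 CPM in hypoxia and 1.78 to 2.07 in normoxia (log2 change -0.37, SE 0.16). It was called in neither fit, but was called when hypoxia sample 3 was left out (adjusted p = 0.048).

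The short-chain network collagens gave the largest rise and an opposite movement of partner chains. All 3 were tested, with 2 called higher and 1 lower. Col10a1 (ENSMUSG00000039462, chromosome 10, 34389981 to 34397085) encodes type X collagen, known from hypertrophic cartilage. It had a log2 CPM of 1.44, 2.08, 1.70 and 0.93 in hypoxia and 3.15, 3.33, 3.20 and 3.18 in normoxia. All normoxia samples were above all hypoxia samples, and their SD was 0.079 against 0.48 in hypoxia (n = 4 each). The log2 change was 1.68 (SE 0.21, limma-trend adjusted p = 0.00017), a level 3.21-fold higher in normoxia. The level stayed low, with 22 to 137 counts per sample and 0.869 ± 0.295 and 3.00 ± 0.181 CPM per kb (SD).

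Type VIII collagen forms hexagonal sheets under endothelia and in the cornea and is also made by cultured mesenchymal cells. Col8a1 (ENSMUSG00000068196, chromosome 16, 57624258 to 57754737) had a log2 CPM of 8.63, 8.65, 8.28 and 7.76 in hypoxia and 9.15, 9.41, 9.09 and 8.66 in normoxia. The samples numbered 4 were lowest in both groups, and the highest hypoxia sample nearly reached the lowest normoxia sample. Its log2 change was 0.75 (SE 0.19, limma-trend adjusted p = 0.0094).

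Col8a2 (ENSMUSG00000056174, chromosome 4, 126286793 to 126314330) moved the other way, from 9.06, 9.67, 9.23 and 9.35 in hypoxia to 8.16, 8.72, 8.39 and 8.54 in normoxia. The groups did not overlap, and the log2 change was -0.87 (SE 0.13, limma-trend adjusted p = 0.00046). The ratio of Col8a1 to Col8a2 counts was 0.742, 0.496, 0.516 and 0.333 in hypoxia and 1.98, 1.62, 1.63 and 1.09 in normoxia, so that the chain with more counts was Col8a2 in all hypoxia samples and Col8a1 in all normoxia samples. This ratio was chosen after its values were seen and was not tested. Both chains summed to 0.0951% ± 0.0148 (SD, n = 4) of the counts in hypoxia and to 0.0931% ± 0.0146 (SD, n = 4) in normoxia, so the opposite movements left the type VIII total within the spread of the samples. Endothelial cells, which also make type VIII collagen, gave little signal, as stated above.

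The fibril-associated collagens sit on the surface of fibrils. Of 9 such chains 6 were tested and none was called without the block, while Col9a2, Col14a1 and Col16a1 were called lower with it. Col14a1 was at 6.79, 7.95, 7.25 and 7.44 log2 CPM in hypoxia and 5.91, 7.21, 6.97 and 6.97 in normoxia. Both samples numbered 1 were low, the groups overlapped, and normoxia was lower in all 4 numbered pairs. The log2 change of Col14a1 was -0.59, with an SE of 0.27 and a limma-trend adjusted p of 0.11 without the block and an SE of 0.070 and an adjusted p of 3.1e-07 with it. It was called without the block when hypoxia sample 1 was left out (log2 change -0.78, adjusted p = 0.027).

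Col16a1 was at 7.70 to 8.20 log2 CPM in hypoxia and 7.37 to 7.77 in normoxia, with a log2 change of -0.29 (SE 0.11). Its adjusted p was 0.063 without the block and 7.5e-05 with it, 0.035 without hypoxia sample 1 and 0.029 without normoxia sample 2, and 0.092 with GC correction and block together. Col9a2, a minor cartilage chain, was at 1.22 to 2.20 and 0.55 to 1.43 log2 CPM, with a log2 change of -0.69 (SE 0.26). The adjusted p of Col9a2 was 0.060 without the block, 0.0022 with it and 0.0087 without hypoxia sample 1. The most abundant fibril-associated chain, Col12a1, was at 12.58, 12.22, 12.09 and 11.84 in hypoxia and 12.32, 12.26, 12.19 and 12.41 in normoxia, with overlapping groups and no call in either fit (log2 change 0.11, SE 0.14). Col9a3 (log2 change -0.26, SE 0.30) and Col20a1 (-0.06, SE 0.29) were low and not called.

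The multiplexins, Col15a1 and Col18a1, are basement membrane collagens that carry sugar chains and release anti-angiogenic fragments. Both were called lower in normoxia. Col18a1 (ENSMUSG00000001435, chromosome 10, 77052178 to 77166548) was at 6.53, 7.06, 7.08 and 7.09 log2 CPM in hypoxia and 5.77, 6.20, 6.36 and 6.34 in normoxia. The samples numbered 1 were the lowest of each group, and the groups did not overlap. Its log2 change was -0.77 (SE 0.14, limma-trend adjusted p = 0.0017).

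Col15a1 (ENSMUSG00000028339, chromosome 4, 47208161 to 47313167) varied more, with 1.94, 3.53, 2.85 and 3.30 log2 CPM in hypoxia and 1.86, 2.08, 2.09 and 2.17 in normoxia. Hypoxia sample 1 lay within the normoxia range, and the log2 change was -0.86 (SE 0.28, limma-trend adjusted p = 0.030). This call was lost without hypoxia sample 2 (log2 change -0.65, adjusted p = 0.085), 3 (0.062) or 4 (0.094), or without normoxia sample 1 (0.063), 2 (0.054) or 3 (0.056), and in limma-voom (0.14). The transmembrane chain Col23a1 (log2 change -0.16, SE 0.35) and Col28a1 (0.11, SE 0.25) were called in neither fit.

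The 12 untested chains had between 0 and 27 counts in any sample and 263 counts in all samples together. Besides the α3-like chains of type VI they were Col4a3, Col4a4, Col9a1, Col13a1, Col17a1, Col19a1, Col22a1, Col25a1 and Col26a1. Col25a1 had 0 counts in every sample, and 3 counts, taken as the smallest detectable number, correspond to 0.1194 CPM in the deepest sample and 0.2326 CPM in the shallowest. The transmembrane class was thereby almost undetected, as only Col23a1 of its 4 chains passed the filter. These limits cover counting error only.

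The direction of the collagen changes went along with base composition. The transcripts of the 32 tested chains had a median GC content of 56.3%, against 49.7% over all tested genes. The 3 chains called higher in normoxia had 46.8% to 50.5% GC, and the 9 called lower had 53.6% to 62.9%. The lowest of the 9, at 53.6%, was Col4a6, which passed the filter only through its hypoxia counts. Across the 32 chains, which share their libraries, the log2 change and GC content had a Spearman's rho of -0.61 as a description. Across 14353 tested genes with a GC value it was -0.39. Among all genes of at least 60% GC the median log2 change was -0.27, and among the 8 collagen chains of that range it was -0.41. Among all genes of 45% to 50% GC it was 0.062, and among 6 such collagen chains it was 0.11. The slope of expression on GC content within a sample, taken against the average sample, was 0.074 to 0.18 log2 units per 10 points in the hypoxia samples and -0.14 to -0.086 in the normoxia samples.

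After a spline in GC content and length had been removed from each sample, 8 of the 32 chains were called, 3 higher and 5 lower, where 29.5% of all genes were called, 15.1% higher and 14.4% lower. The 8 were Col5a2, Col8a1 and Col10a1, which were higher, and Col1a1, Col6a3, Col8a2, Col11a2 and Col18a1, which were lower. The corrected log2 change was -0.57 for Col1a1 (adjusted p = 0.013), 0.40 for Col5a2 (0.0066) and 1.68 for Col10a1 (0.00024). Calls were lost for Col2a1 (log2 change -0.13, adjusted p = 0.42), Col4a2, Col4a6 (0.079) and Col15a1 (0.060). The median corrected change of the 32 chains was -0.087, against 0.0027 over all genes. With correction and block together, 17 chains were called, 5 higher and 12 lower, where 43.2% of all genes were called, 21.7% higher and 21.5% lower. The source of the relation to GC content was not tested.

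**Figure D5:**
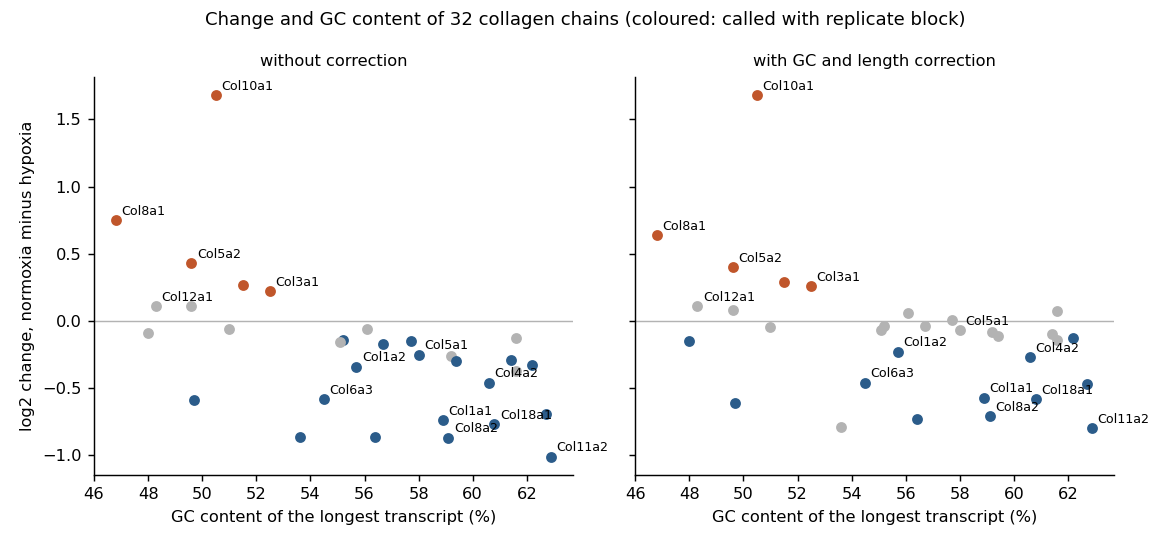
Log2 change, normoxia minus hypoxia (y axis), against the GC content of the longest transcript in % (x axis) for the 32 tested collagen chains, before (left) and after (right) the correction for GC content and length. Coloured points were called with the replicate block; the downward slope on the left (Spearman's rho -0.61) is weaker on the right (-0.47), and Col10a1 keeps its place.

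Promoter windows were found in the RefSeq table for 35 of the 44 chains and were searched on both strands for ACGTG and GCGTG, cores of the hypoxia response element, and for CCAAT. Among all 27025 promoter windows, 19.7% held ACGTG, 32.5% held GCGTG and 37.9% held CCAAT. Of the 35 collagen windows, 5 held ACGTG (Col1a2, Col4a4, Col5a1, Col6a6 and Col11a2), 10 held GCGTG and 12 held CCAAT. Windows are shown for 2 chains, Col1a2 with 2 copies of ACGTG and Col10a1 with the largest change. They lie at chr6:4505368-4505667 and chr10:34389731-34390030 on the plus strand (GRCm38.p6), with matches on either strand in capitals.
Col1a2: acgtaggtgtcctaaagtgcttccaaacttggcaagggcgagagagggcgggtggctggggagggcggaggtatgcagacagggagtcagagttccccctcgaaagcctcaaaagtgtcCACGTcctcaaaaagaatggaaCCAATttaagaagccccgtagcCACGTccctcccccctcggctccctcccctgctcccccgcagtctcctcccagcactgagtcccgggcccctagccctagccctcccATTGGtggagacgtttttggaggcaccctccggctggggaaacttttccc
Col10a1: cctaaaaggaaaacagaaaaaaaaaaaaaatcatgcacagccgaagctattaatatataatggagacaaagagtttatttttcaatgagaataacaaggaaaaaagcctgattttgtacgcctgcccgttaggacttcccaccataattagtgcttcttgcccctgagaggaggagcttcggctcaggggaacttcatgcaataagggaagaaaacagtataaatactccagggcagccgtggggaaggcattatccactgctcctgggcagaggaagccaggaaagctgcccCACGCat
The window of Col10a1 held 1 GCGTG, read on the minus strand, and its GC content was 44.3%. The windows of Col8a1 (60.3% GC) and Col8a2 (71.7% GC) held none of these motifs.

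Collagen chains are hydroxylated, folded, trimmed and crosslinked by helper proteins, and cells sense collagen through receptors. On a list of 33 genes for modification and processing, 30 were tested, 7 were called higher and 6 lower in normoxia, with a median log2 change of 0.025. Over all tested genes, 34.6% were called, 18.0% higher and 16.5% lower. The called genes with the smallest adjusted p were Plod2, a lysyl hydroxylase (log2 change 0.61), the crosslinking enzyme Loxl3 (0.68) and the export factor Mia3 (0.43) among the higher. Among the lower they were Loxl1 (-0.76), Plod1 (-0.42) and Pcolce, an enhancer of procollagen cleavage (-0.27). With the block, 12 were higher and 10 lower, where 46.0% of all genes were called, 23.3% higher and 22.7% lower. Serpinh1, a chaperone that binds the collagen helix, was called in neither fit (log2 change -0.074, SE 0.069).

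Of 10 collagen receptors, 9 were tested, and the calls below stand beside 34.6% of all genes called without the block and 46.0% with it. The integrin chain Itgb1 (log2 change 0.44, SE 0.075, limma-trend adjusted p = 0.001) was called higher. Mrc2, an uptake receptor for collagen fragments (-0.28), and Itga10 (-0.68) were called lower. With the block 3 were higher and 3 lower, as Itga11 (0.31, adjusted p = 0.00027) and Lair1 (0.42, adjusted p = 0.017) were added to the higher and Ddr1 (-0.15, adjusted p = 0.028) to the lower. With GC correction and block together Itga11 was called, and Lair1 (adjusted p = 0.16) and Ddr1 (0.66) were not. The collagen chains had a median change below 0 while the processing list and the receptors (0.078) did not, a comparison of lists that was not tested. These medians are without the correction for GC content and length. With it the collagen median was -0.087, and no corrected median was taken for the lists.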

How the data were processed

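RNA-seq of 8 samples was used. The authors prepared NEBNext libraries from total RNA, ran zUMIs with STAR, samtools and featureCounts (mm10) on single-end reads, and deposited raw counts per Ensembl gene. These counts are not normalized, no value is a mean of samples, and the settings for strand, introns and reads of multiple origin are not given in the sources used here, so Col4a1 and Col4a2, which overlap by 22 bases, can share a few reads.

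The collagen chains, the companion and marker lists and the tests were chosen with earlier results of these data known. Symbols came from GENCODE M21 (GRCm38) for 53360 of 53465 identifiers; the rest held 0.00364% of counts. Genes were kept by filterByExpr of edgeR 4.0.16 (minimum count 5), scaled by TMM and compared as log2 CPM (prior count 3) with limma-trend (limma 3.58.1, R 4.3.3) and Benjamini-Hochberg adjustment over 14369 genes at 0.05. This scale understates the change of low genes. Limma-trend with and without the replicate block, edgeR and DESeq2 were tested on simulated data. The GC and length correction, limma-voom and the permutation tests were not. Named with full values are the called chains and Col1a1, Col1a2, Col3a1, Col2a1 and Col10a1, and from each companion list the 3 smallest adjusted p-values per direction, while other genes named were chosen after their values were seen.

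The study divided a sorted population between the oxygen levels but does not tie the sample numbers to it. That the numbers pair the samples was taken from the data, since the deviations of same-numbered samples from their group means correlated across genes (0.474, 0.275, 0.249 and 0.172 for numbers 1 to 4). The replicate block, a term for this number, was therefore fitted as well. Further alternatives were edgeR's quasi-likelihood test, DESeq2 1.42.0, limma-voom, other scalings, filters and prior counts, a spline correction (5 degrees of freedom) for the length and GC content of each gene's longest transcript, the removal of the 20 most counted genes, and leaving out each sample. The GC correction of the ratios was added after seeing the data. Promoter windows came from RefSeq. The study calls the samples biologically independent, and no source used here says that they came from separate animals, so the p-values measure the spread between these samples.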

Additional observations from a re-analysis of the deposited data

Results flagged for a closer look

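Among 66 sets of 4 values (2 groups, each tested collagen chain and the collagen share), 5 held a sample whose gap to the nearest other value took up more of the range than Dixon's critical value for 4 samples, where chance gives about 1 in 20 sets, or 3.3. For Col9a2, normoxia sample 1 had a log2 CPM of 0.55 against 1.41 to 1.43 in the others, a gap of 0.977 of the range. For Col18a1, hypoxia sample 1 had 6.53 against 7.06 to 7.09 (0.954). For Col16a1, hypoxia sample 2 had 8.20 against 7.70 to 7.75 (0.91). For Col5a1, normoxia sample 3 had 12.38 against 12.31 to 12.32 (0.862). For Col6a2, normoxia sample 1 had 10.86 against 11.01 to 11.04 (0.834). Over the 32 tested chains, normoxia sample 1 was the lowest of its group for 19 chains and hypoxia sample 2 the highest of its group for 18.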

How the results depend on the processing

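Against 12 called chains (3 higher, 9 lower), the fit with the replicate block gave 23 (5 higher, 18 lower). GC and length correction left 5 lower, that correction with the block gave 5 higher, and total-count scaling gave 5 higher. Over all genes, total-count scaling moved the count of lower genes from 2378 to 1575. The lower collagen share in normoxia became a difference of -2.71 percentage points with TMM-scaled library sizes and -0.864 when counts were divided by transcript length. Divided by length, the shares were smaller in both groups, at 5.48% in hypoxia and 4.61% in normoxia. Their ratio was 0.842, against 0.825 for the shares of plain counts. No change called without the replicate block reversed, nor did the 7 ratios that passed the test or the shares of all collagen, Col1a1 and Col1a2. Col4a1, called only with the block (-0.15), was at 0.0045 after GC and length correction. Other tools called 14 (edgeR), 16 (DESeq2, without an adjusted p for Col4a6) and 13 (limma-voom) chains, and leaving out 1 sample at a time called 10 to 15. Each of these tools added Col1a2 and Col5a1, and DESeq2 also added Col3a1, Col9a2 and Col16a1. Without the 20 most counted genes, Col1a1 and Col5a2 were among those removed, and 10 of 26 chains were called. The replicate block removed no collagen call and changed no others than those given with the chains. For the ratios, leaving out a sample cannot give a p below 0.0571, nor sign changes within the 4 pairs one below 0.125 (both exact permutation tests). Depth limits the chains with few counts, such as Col4a6.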
